A study of Mus musculus with 11 samples.

Results

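The HoxB cluster is a row of homeobox genes on mouse chromosome 11. The 9 genes described here, Hoxb1 to Hoxb9, were taken by name from the 47517 gene names of the count table, and all 9 had enough reads to be tested. RNA was taken from forelimb buds of C57BL/6 mouse embryos at E10.5. The 5 control embryos were Gmnn +/f; Prx-Cre and the 6 mutant embryos were Gmnn f/f; Prx-Cre, where f is a floxed allele, which Cre recombinase can delete. Every embryo therefore carried the Cre transgene and at least 1 floxed allele, and embryos without either were not part of the comparison. Gmnn encodes Geminin, an inhibitor of the replication licensing factor Cdt1. Prx-Cre is active in limb bud mesenchyme, so that ectoderm, blood and vessels of the same bud are not its main target. The titles give each library as an embryo of its own. Controls 1 and 2 were littermates of mutants 1 and 2 (litter A), control 3 of mutant 6 (litter B), control 4 of mutant 5 (litter C), and control 5 of mutants 3 and 4 (litter D). By its title, the study asked whether Geminin is needed to regulate Hox genes as the limb is patterned.

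Total counts were 14777833 to 19733288 per control library and 14721181 to 17034741 per mutant library. Gmnn stood at 139 to 239 CPM (counts relative to TMM-scaled library sizes) in controls and at 99.5 to 138 CPM in mutants, so that the mutants had less of its transcript rather than none. Markers fitted the label of the tissue: Prrx1, a transcription factor of limb mesenchyme, stood at 199 to 313 CPM, and Tbx5, the T-box factor of the forelimb, at 64.8 to 123 CPM. Tbx4, its hindlimb counterpart, was at 0.561 to 6.11 CPM. Pitx1, the other hindlimb marker on the list, ran from 0 to 4.07 CPM. Tbx4 and Pitx1 summed highest in control 2, at 6.80 CPM, against 2.02 to 2.91 CPM in mutants. A list of 10 neural tube markers summed to only 0.205 to 1.12 CPM, and Olig2 had 0 reads in all libraries. The neural tube at this stage expresses HoxB genes strongly, which is why that list was measured.

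Hox genes encode transcription factors that give cells a position along the body axis. Their order on the chromosome matches the order in which they are switched on and their front limits of expression, with the genes at the 3′ end, such as Hoxb1, first and furthest forward. Retinoic acid, Cdx factors and Polycomb proteins are known inputs to this order, and Hox proteins bind DNA together with Pbx and Meis cofactors. In limbs, the 5′ genes of the HoxA and HoxD clusters pattern the outgrowing bud, while HoxB genes are better known from the hindbrain, the trunk and the lateral plate from which the forelimb arises.

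All 9 genes lie on the plus strand of chromosome 11 (mm10), from Hoxb9 at 96271457 to 96276595, through Hoxb8 (96281905 to 96285315), Hoxb7 (96286623 to 96290162), Hoxb6 (96292476 to 96301569), Hoxb5 (96303336 to 96306121), Hoxb4 (96318267 to 96321638), Hoxb3 (96323326 to 96347930) and Hoxb2 (96350525 to 96354012), to Hoxb1 at 96365752 to 96368256. The gaps between neighbours were 1307 to 12145 bases, the widest between Hoxb5 and Hoxb4. The last gene of the cluster, Hoxb13, lies 74009 bases from Hoxb9 and had 1 read in control 3, 1 in mutant 6 and 0 elsewhere, so it is not described further. Reads were counted without regard to strand, and antisense transcripts lie over some members. Hoxb3os covers 52.9% of the exon bases of Hoxb3 and 27.3% of those of Hoxb2, and Hoxb5os covers 3.59% of those of Hoxb5. The counts of Hoxb3 and Hoxb2 are uncertain for that reason.

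RefSeq promoter sequence (GRCm38.p6, which has mm10 coordinates) was at hand for 3 of the 9 genes, and it is shown because the members moved together between libraries, as described further on. The 3 promoters were searched on both strands for letters found in sites of known HoxB regulators: TTTAT for Cdx factors, TGATNNAT for Hox proteins paired with Pbx, and a pair of AGGTCA repeats spaced by 5 bases in the same direction (DR5) for retinoic acid receptors. Capitals mark TTTAT, or its reverse complement, in the Hoxb8 promoter (chr11:96281655-96281904) and TGATNNAT in the Hoxb1 promoter (chr11:96365508-96365751). The Hoxb4 promoter (chr11:96318017-96318266) held none of the 3 motifs and has no capitals. All are plus strand.
Hoxb8: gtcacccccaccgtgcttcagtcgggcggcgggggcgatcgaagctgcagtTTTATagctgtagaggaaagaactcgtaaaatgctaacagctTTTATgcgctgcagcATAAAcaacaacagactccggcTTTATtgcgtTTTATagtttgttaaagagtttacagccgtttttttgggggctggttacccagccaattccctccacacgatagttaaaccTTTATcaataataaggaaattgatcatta
Hoxb4: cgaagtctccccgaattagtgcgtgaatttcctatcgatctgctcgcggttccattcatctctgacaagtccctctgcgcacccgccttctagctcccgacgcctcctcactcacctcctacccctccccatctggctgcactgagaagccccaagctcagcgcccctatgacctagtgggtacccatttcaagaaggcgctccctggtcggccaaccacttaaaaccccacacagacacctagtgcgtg
Hoxb1: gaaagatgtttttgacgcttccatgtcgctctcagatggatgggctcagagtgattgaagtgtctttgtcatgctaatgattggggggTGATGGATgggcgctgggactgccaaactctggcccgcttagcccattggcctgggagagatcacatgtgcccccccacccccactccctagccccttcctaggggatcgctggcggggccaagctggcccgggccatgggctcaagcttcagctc

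The Hoxb8 promoter held 6 TTTAT matches. TTTAT occurs at least once in 37.3% of the 32851 RefSeq promoters, but at least 6 times in 129 of them (0.393%). TGATNNAT was found 1 time each in the Hoxb1 and Hoxb8 promoters and occurs in 7.68% of promoters. In Hoxb8 it does not overlap a TTTAT match. The DR5 motif was found in none of the 3 and in 0.00913% of all. GC content was 44.4% for Hoxb8, 58% for Hoxb4 and 59.4% for Hoxb1, against a median of 52.4%. These are letter matches, not binding sites.

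Levels along the cluster were compared per kilobase of exon (CPM per kb), since the genes differ in length. They did not rise or fall steadily from Hoxb1 to Hoxb9. Over all 11 libraries Hoxb5 had the highest mean level, 7.70 ± 3.57 CPM per kb (SD, n = 11), followed by Hoxb7 at 6.63 ± 2.91. Hoxb9 (3.55 ± 2.44), Hoxb6 (3.06 ± 1.57), Hoxb1 (3.04 ± 2.96) and Hoxb4 (2.37 ± 1.04) formed a middle group. Hoxb8 (0.484 ± 0.324), Hoxb2 (0.370 ± 0.162) and Hoxb3 (0.279 ± 0.102) were low, with 228, 232 and 213 reads in all. Hoxb2 and Hoxb3 adjoin, while the low Hoxb8 lies between the higher Hoxb7 and Hoxb9, 1307 bases from the former.

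Neighbours in that order of levels could mostly not be separated beyond their spread. Hoxb7 exceeded Hoxb9, and Hoxb4 exceeded Hoxb8, in 11 of 11 libraries, and only the ranges of Hoxb4 and Hoxb8 did not overlap. Hoxb5 exceeded Hoxb7 in 8 libraries, and Hoxb7 was the highest member in mutants 1, 3 and 5. Within the middle group the order changed from library to library: Hoxb9 exceeded Hoxb6 in 5 of 11, Hoxb6 exceeded Hoxb1 in 6, and Hoxb1 exceeded Hoxb4 in 4. Among the low genes, Hoxb8 exceeded Hoxb2 in 8 of 11 and Hoxb2 exceeded Hoxb3 in 8.

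**Figure D1:**
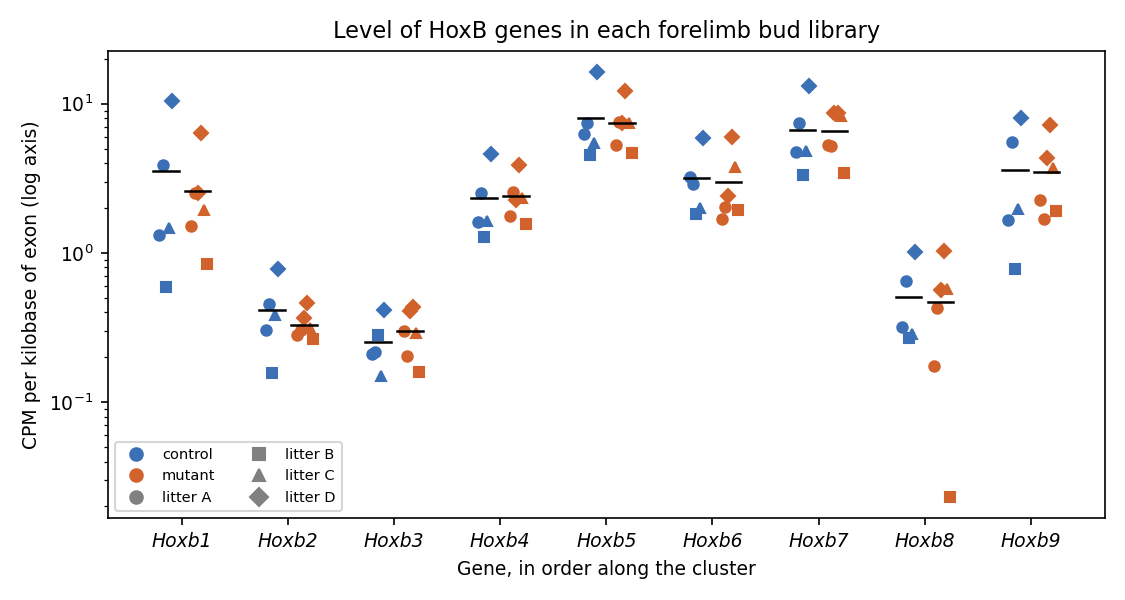
Level of each HoxB gene per kilobase of exon (log axis) in each forelimb bud library, with genes in chromosomal order, colour for genotype, marker shape for litter and a bar at each genotype mean. Hoxb5 and Hoxb7 are highest and Hoxb8, Hoxb2 and Hoxb3 lowest in both genotypes, and control 5 or mutant 4 of litter D (diamonds) is the highest library for every gene.

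Genes that adjoin on the chromosome were tested against each other by exact two-sided sign-flip permutation of the log2 difference within libraries, over 8 pairs with Benjamini-Hochberg adjustment. The test treats all libraries as independent, littermates among them. The difference had the same sign in 11 of 11 libraries for 7 of the 8 pairs (exact p 0.000977, the smallest the test can give, adjusted p 0.00112). Going from Hoxb1, the level dropped to Hoxb2 by 2.65 on the log2 scale (SD 0.72), rose from Hoxb3 to Hoxb4 by 3.07 (SD 0.49) and from Hoxb4 to Hoxb5 by 1.70 (SD 0.13). It then dropped to Hoxb6 by 1.36 (SD 0.30), rose to Hoxb7 by 1.14 (SD 0.43), dropped to Hoxb8 by 4.13 (SD 1.12) and rose to Hoxb9 by 3.02 (SD 1.24). The step between Hoxb4 and Hoxb5 varied least between libraries. Hoxb2 and Hoxb3 were not separated: Hoxb3 minus Hoxb2 was -0.39 (SD 0.64, higher in 3 of 11 libraries, exact p and adjusted p 0.0781). Without control 3 that difference was -0.51 (adjusted p 0.0195, exact). Its sign turned to 0.24 when only exon bases free of antisense transcripts were used as length. Hoxb3 then stood at 0.592 and Hoxb2 at 0.510 CPM per kb, and Hoxb8 (0.484) was the lowest member. By that length Hoxb2 minus Hoxb1 was -2.19 and Hoxb4 minus Hoxb3 was 1.98. An error in length is shared by all libraries, so the p-values do not cover it.

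Among 27 Hox genes of paralogue groups 1 to 9, the HoxB genes were in the middle and at the bottom per kilobase. Hoxb5 ranked 7 and Hoxb7 ranked 8, below Hoxd8 (27.5 ± 6.53 CPM per kb, SD, n = 11), Hoxd9 (24.1 ± 9.72) and Hoxa7 (21.2 ± 4.87). Hoxb8, Hoxb2 and Hoxb3 ranked 24, 25 and 26. Within a paralogue group, the HoxB gene was below its highest paralogue in every group but group 6, where Hoxb6 (3.06) and Hoxc6 (2.99 ± 1.44) were close.

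The values behind these means varied widely between libraries of the same genotype. Hoxb1, the gene at the 3′ end, stood at 3.08, 9.01, 1.36, 3.43 and 24.4 CPM in controls 1 to 5 and at 3.53, 5.82, 5.84, 14.8, 4.51 and 1.96 CPM in mutants 1 to 6. Control 5 and mutant 4, both of litter D, were highest and the litter B libraries lowest, and the genotypes overlapped. In a bulk sample of this kind, fewer cells with a transcript and less of it per cell cannot be told apart.

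Hoxb9, at the other end of the row, shared its 2 highest libraries and its lowest with Hoxb1. It stood at 4.31, 14.2, 2.02, 5.05 and 20.8 CPM in controls 1 to 5 and at 5.84, 4.37, 11.1, 18.4, 9.57 and 4.91 CPM in mutants 1 to 6. Control 5 and mutant 4 were highest and control 3 lowest, and the genotypes overlapped.

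The middle of the cluster moved over a narrower range. Hoxb4 stood at 4.14, 6.44, 3.27, 4.18 and 11.8 CPM in controls 1 to 5 and at 4.51, 6.62, 5.84, 9.93, 6.01 and 3.99 CPM in mutants 1 to 6. Hoxb5, the most highly counted member with 3828 reads, stood at 17.3, 20.7, 12.5, 15.2 and 45.5 CPM in controls and at 14.8, 21.0, 20.8, 34.1, 20.8 and 13.1 CPM in mutants. The rank order of libraries was nearly the same for both genes. Hoxb6 ran from 3.60 to 11.6 CPM in controls and 3.3 to 11.8 CPM in mutants, and Hoxb7 from 5.13 to 20.2 and 5.34 to 13.4 CPM.

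Among the low genes, Hoxb8 had 15, 33, 13, 13 and 38 reads in controls 1 to 5 and 8, 17, 22, 46, 22 and 1 in mutants 1 to 6. Mutant 6 had the fewest, a single read. Hoxb2 had 10 to 39 reads in controls and 15 to 27 in mutants, and Hoxb3 had 11 to 25 and 11 to 31. Counting error is a larger part of the spread for these 3 genes than for the others. Set against Poisson counting, the chi-square per degree of freedom over libraries was 2.60 for Hoxb3, 3.89 for Hoxb2 and 9.41 for Hoxb8, against 18.7 to 106 for the other 6 members, with Hoxb1 the highest.

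Libraries that were high for one HoxB gene were high for the others. Control 5 was the highest library for 6 members and mutant 4 for the other 3, and both lay above the median of all 9. Control 3 was lowest for 6 members, and neither it nor mutant 6 lay above the median of any. Scaled to each gene's own mean and SD and averaged over the members, control 5 stood at 1.70 and mutant 4 at 1.24 SD, control 3 at -1.14 and mutant 6 at -1.11. Against the mean of the other 4 controls (in log2 CPM), control 5 was 6.96-fold higher for Hoxb1, 4.07-fold for Hoxb9, 2.80-fold for Hoxb5 and 1.84-fold for Hoxb3. By the same measure control 3 was at 0.209 of the other controls for Hoxb1 and at 0.235 for Hoxb9, but at 1.19 for Hoxb3.

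**Figure D2:**
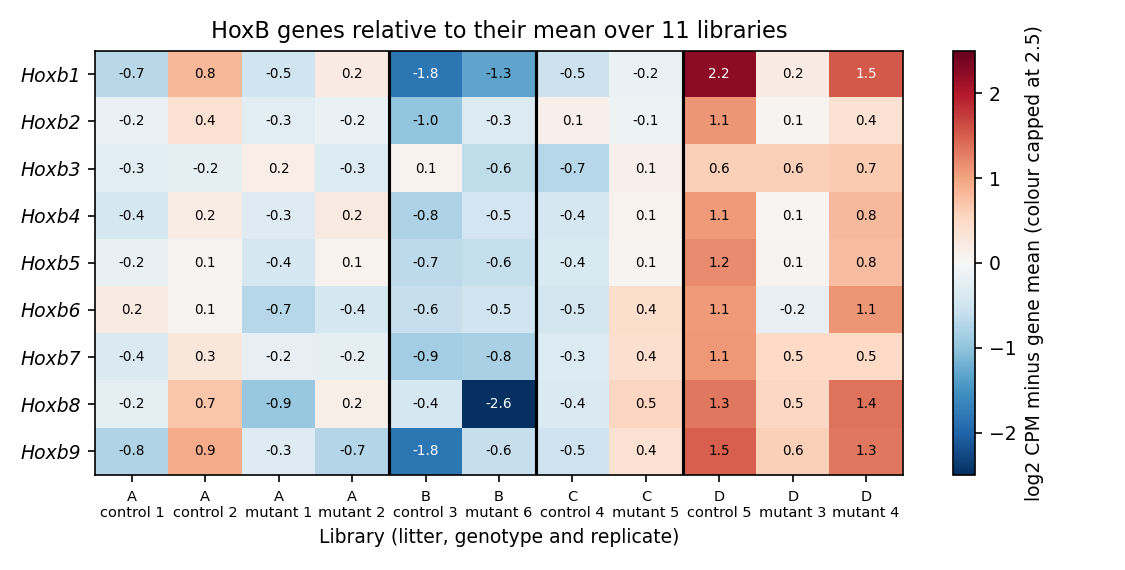
Log2 CPM of each HoxB gene minus its own mean over the 11 libraries, with libraries grouped by litter between the black lines and the colour scale capped at 2.5. The litter D columns control 5 and mutant 4 are red for all 9 genes and the litter B columns are blue apart from Hoxb3 in control 3.

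Over the 11 libraries, all 36 pairs of HoxB genes were positively correlated in log2 CPM. Pearson's r was 0.37 to 0.98 with a median of 0.82, and 30 pairs passed an adjusted permutation p of 0.05 by Pearson's r and 30 by Spearman's rho (100000 resamples, Benjamini-Hochberg over the 36 pairs). These permutations treat the 11 libraries as independent and do not keep littermates together, so the p-values may be too small. The 6 best counted genes, with 1080 to 3828 reads each (Hoxb1, Hoxb4, Hoxb5, Hoxb6, Hoxb7 and Hoxb9) gave r of 0.78 to 0.98 over their 15 pairs. Over the 6 mutants alone all 36 were above 0, with a median of 0.83. By exact permutation over these mutants, 21 of the 36 pairs had a p under 0.05 with no adjustment. Among the 15 pairs of the best counted genes 7 did. Litters hold 2 to 4 libraries, too few for a correlation within each. After litter and genotype means were removed, the median r was 0.55 over all pairs (-0.44 to 0.97, 32 above 0) and 0.70 over the 15 pairs of well counted genes (0.51 to 0.97).

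Hoxb4 and Hoxb5 gave the closest pair. Their r was 0.98 (permutation p 1e-05, the smallest the resamples can give, adjusted p 0.00012), with a rho of 0.93 (permutation p 0.00013, adjusted p 0.00180). It was 0.96 without controls 5 and 3, the libraries farthest from the median of Hoxb4, and 0.97 after litter and genotype were removed. Among 15820 other genes tested, each of the pair was the gene most correlated with the other. Hoxb1 and Hoxb4 were second for each other (r 0.97, permutation p 1e-05, adjusted p 0.00012, rho 0.95, adjusted p 0.00108, r 0.93 without control 5 and mutant 4). Of the 72 ranks that the members held for each other among all genes, 29 were within the first 100. For comparison, the correlation of Hoxb5 with all other genes had a median of -0.03.

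Hoxb3 followed the others least. Its median r with the other 8 was 0.61, 3 of its 8 pairs passed by adjusted Pearson p, and after litter and genotype were removed the median was 0.05. It is also the member with the fewest reads and the most exon bases under an antisense transcript. The role of either in its lower r was not tested.

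Distance along the cluster did not order the correlations. The median r was 0.80 for the 8 pairs of adjoining genes, 0.84 for the 6 pairs that lie 3 steps apart, 0.63 for the 3 pairs that lie 6 steps apart, and 0.91 for Hoxb1 and Hoxb9, which lie 8 steps apart (permutation p 0.00013, adjusted p 0.000585, rho 0.89, adjusted p 0.00247, r 0.83 without control 5 and mutant 4). All pairs share the same libraries, and many rest in part on control 5: without the pair of libraries farthest from the median of the first gene, r was 0.18 to 0.96 with a median of 0.73. The lowest of these was Hoxb1 with Hoxb3.

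**Figure D3:**
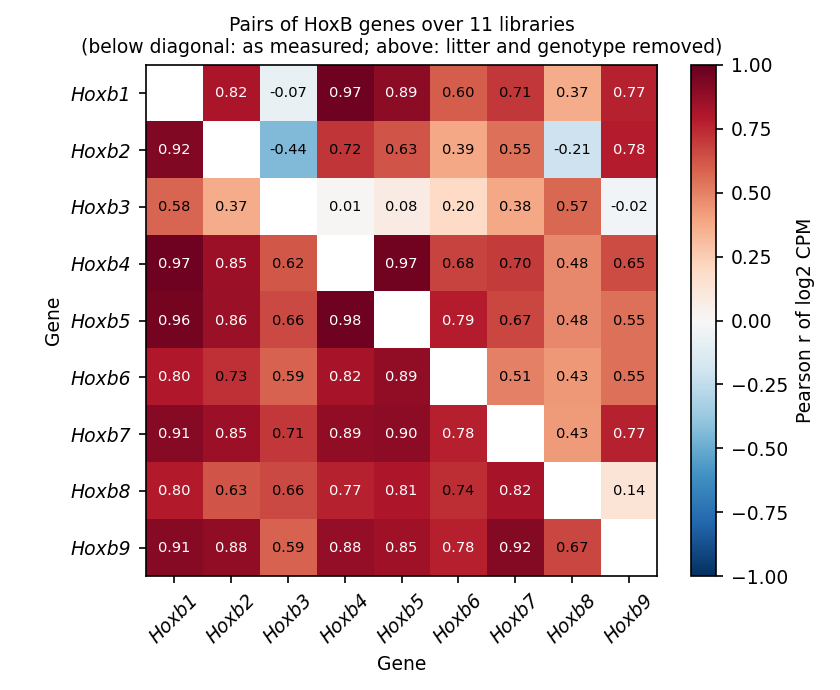
Pearson's r of log2 CPM for each pair of HoxB genes over 11 libraries, as measured below the diagonal and after removal of litter and genotype means above it. As measured every pair is above 0, and the Hoxb3 row and column lose most of their correlation above the diagonal.

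Between genotypes none of the 9 HoxB genes passed the test (edgeR quasi-likelihood F test on genotype and litter, Benjamini-Hochberg adjusted p under 0.05 over 15821 genes), where 2.18% of all genes did (1.48% lower and 0.702% higher in mutants). Limma-voom also called 0 of 9, against 2.77% of all genes. DESeq2 called 0 of the 6 members to which it gave an adjusted p, all but Hoxb2, Hoxb3 and Hoxb8, against 7.55% of all genes. With no adjustment, 0 of 9 had a p under 0.05 by edgeR, against 21.4% of all genes. Mutant minus control log2 differences were below 0 for 7 members and above 0 for 2, with a median of -0.14 against 0.00 over all genes. The ranges of the genotypes overlapped for all 9, and they did not overlap for 2.59% of all genes.

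Hoxb8 had the lowest estimate, -0.49 (SE 0.45, 95% interval -1.48 to 0.50, edgeR adjusted p 0.581), and it holds the library with 1 read. Hoxb1, at 8.25 ± 9.47 CPM in controls (SD, n = 5) and 6.08 ± 4.52 in mutants (SD, n = 6), gave -0.40 (interval -1.16 to 0.36, edgeR adjusted p 0.553). Hoxb2 had the smallest p of the members, with -0.34 (interval -0.98 to 0.29, edgeR adjusted p 0.539). The intervals of Hoxb8 and Hoxb1 extend below a log2 difference of -1.

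The middle genes were measured more closely. Hoxb5 was 22.3 ± 13.3 CPM in controls and 20.8 ± 7.37 in mutants, a log2 difference of -0.14 (SE 0.18, interval -0.53 to 0.25, edgeR adjusted p 0.703). Hoxb7 gave -0.09 (interval -0.49 to 0.31) and Hoxb4 0.00 (interval -0.45 to 0.46). Hoxb6 gave -0.22 (interval -0.81 to 0.37), Hoxb9 -0.10 (interval -0.89 to 0.68) and Hoxb3 0.11 (interval -0.54 to 0.76). The widest of these intervals belongs to Hoxb9. Across the 9 genes the outer limits were -1.48 and 0.76.

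Because the fit includes litter, leaving out a litter's only control or only mutant takes that litter out of the genotype comparison. Fits without control 3 or mutant 6 thus lose litter B, and those without control 4 or mutant 5 lose litter C. The fit without control 5 loses litter D. Single libraries or whole litters set the sign of the small estimates. It turned for Hoxb5 without control 5 (0.08), for Hoxb7 without control 5 or 2 (0.10 and 0.02), for Hoxb9 without control 2, control 5, mutant 2 or mutant 3 (0.31, 0.07, 0.05 and 0.01), for Hoxb3 without control 4 or mutant 5 (-0.06 each), and for Hoxb4 without 7 of the 11 libraries (down to -0.11). Hoxb1, Hoxb2, Hoxb6 and Hoxb8 kept their sign in each of the 11 fits that left out 1 library, but their size did not hold. Hoxb1 ran from -0.59 without control 1 to -0.01 without control 5, and Hoxb2 from -0.54 without control 3 or mutant 6 to -0.11 without control 5. Hoxb6 ran from -0.47 without control 4 or mutant 5 to -0.09 without mutant 3, and Hoxb8 from -0.84 without control 4 or mutant 5 to -0.20 without control 3 or mutant 6. With a covariate for the libraries' level of transcripts with long T runs, Hoxb1 gave -1.09 (edgeR adjusted p 0.401).

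Litter by litter, the 9 genes differed in different directions. No member had the same sign in all 4 litters, where 26% of all genes did (13.5% lower and 12.6% higher in mutants). In litter A, with 2 libraries of each genotype, 7 members were lower in mutants and the median difference was -0.21. In litters B and C, with 1 library of each genotype, 7 and 8 members were higher, with medians of 0.08 and 0.76. In litter D, which holds 1 control, 8 members were lower, with a median of -0.62. The medians over all genes were between -0.01 and 0.01 in each litter.

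The same split can be read gene by gene. Hoxb1 differed by -0.21, 0.49, 0.38 and -1.38 (log2, litters A to D in turn), and Hoxb9 by -0.62, 1.23, 0.90 and -0.54. Hoxb7 differed by -0.18, 0.06, 0.76 and -0.59. Litter D, whose control 5 was the highest library for 6 members, gave the lowest value of the 4 for Hoxb1, Hoxb2, Hoxb4, Hoxb5 and Hoxb7. Hoxb8 in litter B (-2.19) rests on the library with 1 read. In litter C only Hoxb2 was below 0 (-0.26).

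**Figure D4:**
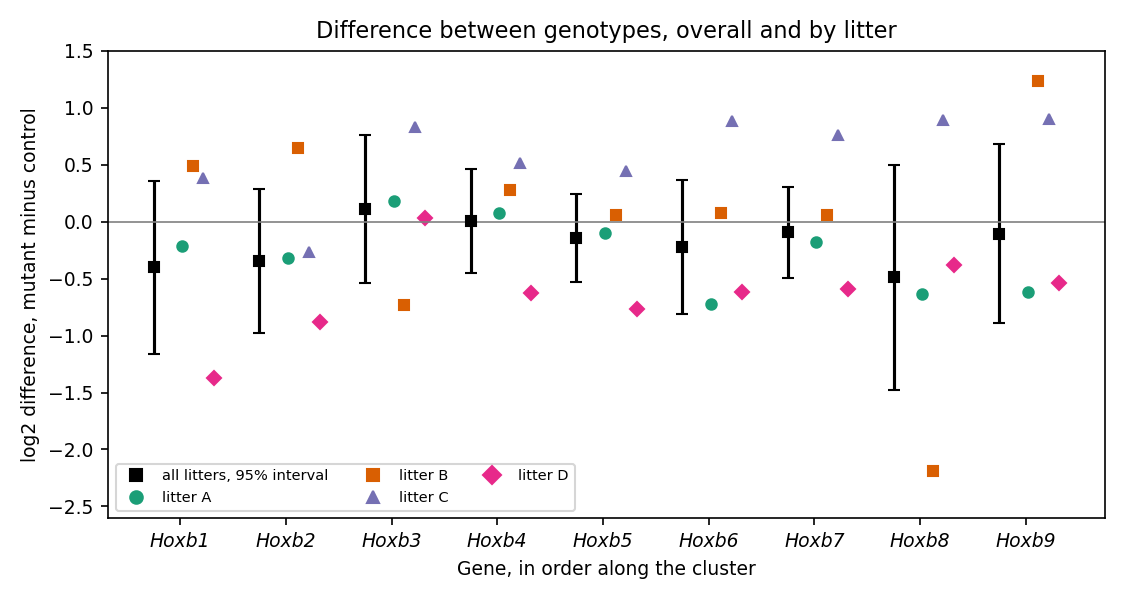
Mutant minus control difference of each HoxB gene in log2 units, as estimated over all litters with its 95% interval (black) and within each litter (coloured markers). Every interval includes 0, and the litter C markers lie above 0 for 8 genes while the litter D markers lie below 0 for 8.

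A test of whether the genotype difference varies between litters (edgeR interaction of genotype and litter, 3 residual degrees of freedom) called 0 of 9 members and 0% of all genes. The smallest adjusted p of a member was 0.950, and 0 of 9 had an unadjusted p under 0.05, against 3.82% of all genes. Without a filter on low counts Hoxb9 passed, 1 of 9 against 1.5% of all genes.

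Litter means over both genotypes spread widely. Mean Hoxb1 was 5.36 CPM in litter A (n = 4), 1.66 in litter B (n = 2), 3.97 in litter C (n = 2) and 15 in litter D (n = 3). Mean Hoxb5 was 18.5, 12.8, 18 and 33.5 CPM in the same order, and mean Hoxb9 7.17, 3.46, 7.31 and 16.8 CPM. Litter D had the highest mean for all 9 genes. None of them passed the edgeR test over the 3 litter coefficients (smallest adjusted p 0.100, for Hoxb1), where 0.0885% of all genes passed. With no adjustment, 7 of 9 had a p under 0.05, all but Hoxb2 and Hoxb3, against 13.5% of all genes.

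The litter call depended on the tool and on mutant 3. DESeq2 called 4 of 9 members (Hoxb1, Hoxb4, Hoxb5 and Hoxb7) against 3.57% of all genes, and edgeR without a filter on low counts called 7 of 9 against 5.41%. Limma-voom called 0 against 0.101%. Mutant 3 was the litter D library nearest to the other litters, and without it edgeR called Hoxb1 and Hoxb5, 2 of 9, against 0.553% of all genes.

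The HoxB genes ran opposite to the 5′ Hox genes of the distal limb. The summed level of Hoxa13, Hoxd11, Hoxd12 and Hoxd13, which mark the distal and posterior bud, was 50.6, 37.2, 113, 59.0 and 6.87 CPM in controls 1 to 5 and 91.3, 72.8, 54.1, 16.9, 46.0 and 100.5 CPM in mutants 1 to 6. It was lowest in control 5 and mutant 4, where the HoxB genes were highest, and highest in control 3 and mutant 6, where the members' mean scaled level was lowest.

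Hoxb5 gave the strongest relation, r -0.95 (permutation p 0.0001, adjusted p 0.00157 over the 63 relations tested) and rho -0.80 (permutation p 0.00440, adjusted p 0.0496). Without control 5 and mutant 4 its r was -0.80, and after litter and genotype were removed it was -0.94. For the other members that last value was -0.88 (Hoxb1), -0.75 (Hoxb2), -0.04 (Hoxb3), -0.90 (Hoxb4), -0.84 (Hoxb6), -0.67 (Hoxb7), -0.26 (Hoxb8) and -0.70 (Hoxb9). The permutations do not keep litters together. Hoxb6 gave r -0.92 (adjusted permutation p 0.00126) and rho -0.93 (adjusted permutation p 0.00504), with r -0.82 without the same libraries. Over the 9 members r was -0.57 to -0.95 with a median of -0.90. Of these, 7 passed by Pearson's r, all but Hoxb3 and Hoxb8, and 6 by Spearman's rho, all but Hoxb3, Hoxb4 and Hoxb7. Hoxb3 had the weakest relation (r -0.57, adjusted permutation p 0.286, rho -0.53, adjusted permutation p 0.339), and its r was -0.07 without control 5 and mutant 4.

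**Figure D5:**
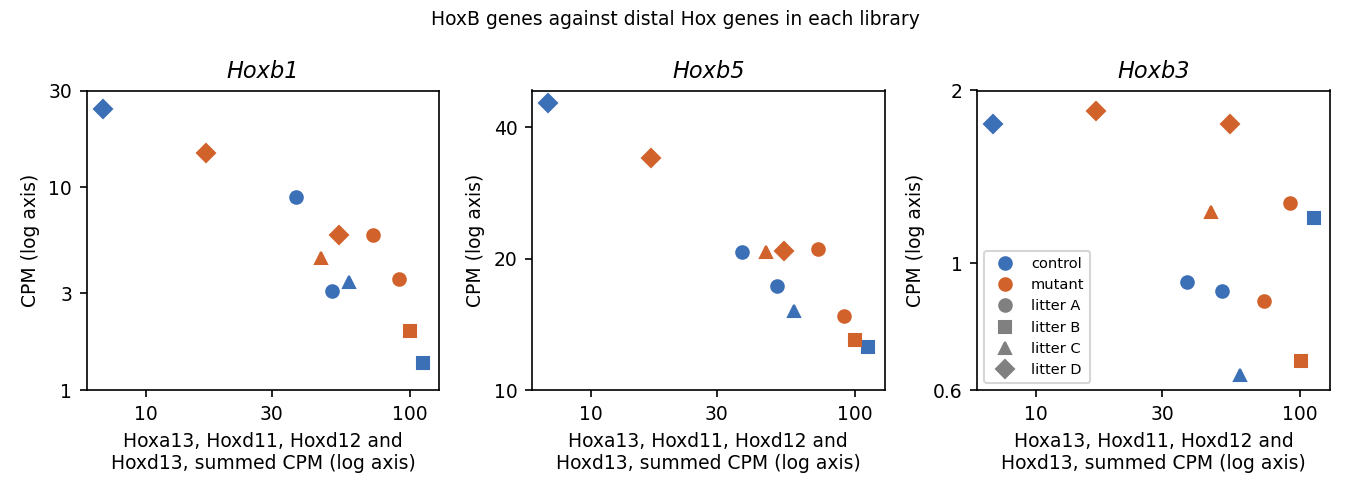
CPM of Hoxb1, Hoxb5 and Hoxb3 against the summed CPM of Hoxa13, Hoxd11, Hoxd12 and Hoxd13 in the 11 libraries (both axes logarithmic), with colour for genotype and marker shape for litter. Hoxb1 and Hoxb5 fall along a line from control 5 to control 3, and Hoxb3 is scattered.

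None of the other 6 library measures in that family passed for any member. Over the 9 genes, r was 0.26 to 0.67 with the summed proximal genes Meis1 and Meis2, -0.37 to 0.23 with the neural tube list, -0.61 to -0.16 with the somite and muscle precursor list, -0.07 to 0.41 with the haemoglobin share, 0.04 to 0.64 with Gmnn and -0.38 to -0.04 with the total count. The smallest adjusted permutation p among these was 0.177 by Pearson's r (Hoxb6 with Meis1 and Meis2) and 0.212 by Spearman's rho (Hoxb2 with the same genes). The sum of Meis1 and Meis2 joins genes that differed. Taken singly, Meis1 had r 0.34 and Meis2 0.82 with the members' mean scaled level, a description with no test. Meis1 was the larger part of the sum (187 against 112 CPM in controls) and was lower in mutants, as given further on.

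Macrophage markers, which were not in that family, also ran opposite to the HoxB genes. They were looked at after their values were seen, so that their r is a description with no test. All 4 on the list (Csf1r, Cx3cr1, Adgre1 and Mrc1) had r of -0.93 to -0.91 with the members' mean scaled level, against -0.94 to -0.88 for the 4 distal Hox genes. Their summed level was 6.26, 4.53, 12.2, 8.48 and 0.631 CPM in controls 1 to 5 and 7.29, 8.53, 2.75, 2.14, 5.88 and 12.8 CPM in mutants 1 to 6. It was lowest in the 3 libraries of litter D and highest in both of litter B, and Adgre1 reached 0. Other lists were mixed: r was -0.82 to 0.46 over 6 surface ectoderm markers (lowest for Krt5), -0.91 to 0.75 over 7 somite and muscle precursor markers (lowest for Meox2) and -0.77 to 0.70 over 7 limb mesenchyme markers. The part of tissue composition in the HoxB spread was not tested.

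Other transcripts inside the cluster were few. Of 9 further gene names between Hoxb1 and Hoxb13, 4 were tested and none was called between genotypes. Hoxb5os, which is antisense to Hoxb5, stood at 5.54, 8.44, 3.60, 6.27 and 17.9 CPM in controls 1 to 5 and at 7.29, 9.86, 13.7, 14.2, 11.2 and 6.01 CPM in mutants 1 to 6, highest and lowest in the same libraries as Hoxb5 among the controls. Its log2 difference was 0.28 (SE 0.19, edgeR adjusted p 0.422), where that of Hoxb5 was -0.14. Hoxb3os gave 0.08 (edgeR adjusted p 0.915) at 1.01 to 3.08 CPM. Of the 3 tested genes on each side of the cluster, 0 of 6 passed, with Ube2z nearest (0.21, edgeR adjusted p 0.0991).

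Partners and inputs of HoxB genes were read against the 2.18% of all genes that passed between genotypes, and the 21.4% that had a p under 0.05 with no adjustment. Of 18 paralogues in HoxA, HoxC and HoxD, 0 passed between genotypes and 4 had an unadjusted p under 0.05, with a median log2 difference of 0.01. Of 9 cofactors of the Meis, Pbx and Pknox families, 1 fell and 0 rose. It was Meis1, at 187 ± 22.8 CPM in controls (SD, n = 5) and 122 ± 18.8 in mutants (SD, n = 6), a log2 difference of -0.63 (SE 0.10, edgeR adjusted p 0.0291). That call was lost in 15 of 24 alternatives, with an adjusted p of up to 0.267. Of 21 genes that act on HoxB transcription, 17 were tested and 0 passed between genotypes. They include retinoic acid receptors, Aldh1a2 and the Cyp26 enzymes, Cdx1 and Polycomb subunits, and their median log2 difference was 0.02. Of 6 limb genes that act beside Hox genes, 0 passed.

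Between litters, 1 of the 18 paralogues passed, Hoxd9 (edgeR adjusted p 0.0498), and 1 of the 17 inputs, Crabp1, which binds retinoic acid (edgeR adjusted p 0.0498), where 0.0885% of all genes passed. Hoxd9 kept the call in 8 and Crabp1 in 7 of 16 alternatives. Genes outside the cluster most like the HoxB genes were ranked by Pearson's r with the members' mean scaled level over the 11 libraries, among 13245 genes of at least 1 CPM. The highest were Eno1, a glycolytic enzyme (0.97), Tlcd1 (0.96), the nuclear receptor gene Nr6a1 (0.96), Myc (0.96) and Trmt1 (0.95). The lowest were Auts2 (-0.99), Sat1 (-0.98), Dclk1 (-0.98), Vcam1 (-0.98) and C630043F03Rik (-0.97). Nr6a1 ran from 4.91 to 32.6 CPM with its highest level in control 5, and Vcam1 from 15.4 to 95.4 CPM with its highest level in control 3. These r values are a description over libraries that differ by litter, and none of the 10 genes passed between genotypes.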

How the data were processed

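RNA-seq libraries were made from total RNA of forelimb buds after ribosomal RNA depletion, per the labels' protocols. The authors deposited unnormalized read counts for each gene name, made with featureCounts 1.4.6-p4 on mm10 and GENCODE M9 at a mapping quality of at least 10, per the file headers. Reads were aligned with STAR 2.5.4b, per the submitters' processing notes. The header command sets no strand option, so reads over a gene and an antisense gene cannot be told apart or were left out. The header lists 12 alignment files, and the table analysed here has 11 sample columns.

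Counts were analysed with edgeR 4.0.16 in R 4.3.3: filterByExpr (15821 genes kept, 99.9% of counts), TMM scaling, and the quasi-likelihood F test, two-sided, on genotype and litter. P-values were adjusted by Benjamini-Hochberg over all genes tested, with a threshold of 0.05. Intervals are at 95%. Litter and interaction coefficients were tested likewise. Log2 CPM used a prior count of 2. Correlations were tested by permutation with scipy 1.17.1 in Python 3.11.15. P-values reflect the spread between these embryos only. The edgeR fit was tested on simulated data.

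Pairing comes from the titles' litters. Deviations from genotype means correlated across genes at -0.16 to 0.37 (median 0.13, 8 pairs) within litters and -0.33 to 0.17 (median -0.02, 22 pairs) between them. No 2 libraries of a genotype were alike to within sampling noise (25 pairs compared, with a chi-square per degree of freedom of at least 6.82).

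The members and gene lists were chosen with earlier results of these data known. Named genes were all members, Hoxb13, genes inside and beside the cluster, the members of the lists with extreme p, and the 5 genes most and least like the members. Alternatives were upper-quartile or RLE scaling, no filter or 1 CPM in 5 libraries, DESeq2 1.42.0, limma-voom (limma 3.58.1), no litter block, removal of haemoglobin, mitochondrial and ribosomal RNA genes, a covariate for the library's level of transcripts with T runs of at least 18 bases against at most 5, unshared exon length, and each library or litter left out.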

Additional observations from a re-analysis of the deposited data

How the results depend on the processing

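The count of HoxB genes called between genotypes was 0 under all 24 alternatives. The fit with no replicate block, on genotype alone, was among them (0 of 9). Several of these fits called few genes of the whole table, so that 0 of 9 says little about the HoxB genes there. The fit with no block called 16 of 14566 genes and the fit with the T-run covariate 2 of 15821. Without control 4 the call fell to 1 of 16584 genes. The most were called without a filter on low counts, 1566 of 29256. With DESeq2 only 6 members had an adjusted p, and Hoxb2, Hoxb3 and Hoxb8 had none. Of 216 alternative fold changes, 186 kept their sign. Of the 30 that turned, none passed the test. Without litter A the values were -0.041 for Hoxb4, 0.061 for Hoxb6 and 0.31 for Hoxb9, and without litter B -0.051 for Hoxb4. Without litter C they were -0.058 for Hoxb3 and -0.10 for Hoxb4, and without litter D 0.0023 for Hoxb1, 0.082 for Hoxb5, 0.10 for Hoxb7 and 0.074 for Hoxb9. Hoxb4 had -0.0017 without a filter on low counts, -0.056 with limma-voom, -0.00099 without mitochondrial, haemoglobin and ribosomal RNA genes, and -0.42 with the T-run covariate. Leaving out 1 library gave -0.59 to -0.0061 for Hoxb1, -0.54 to -0.11 for Hoxb2, -0.060 to 0.31 for Hoxb3, -0.11 to 0.23 for Hoxb4, -0.27 to 0.081 for Hoxb5, -0.47 to -0.088 for Hoxb6, -0.28 to 0.10 for Hoxb7, -0.84 to -0.20 for Hoxb8, -0.35 to 0.31 for Hoxb9, -0.51 to -0.29 for Hoxb3 minus Hoxb2 in level, and 0 to 2 members called between litters. Members called between litters were 7 without a filter on low counts, 4 with DESeq2 and 2 without mutant 3, and 1 had an interaction without that filter. With unshared exon length the level of Hoxb3 was 0.592 CPM per kb and Hoxb3 minus Hoxb2 was 0.24. The median pairwise r was 0.55 after litter and genotype were removed. The cause of these changes was not tested, and fits that leave libraries out also have fewer samples. Leaving out a litter's only control or only mutant also takes that litter out of the genotype difference. Depth limits Hoxb2, Hoxb3 and Hoxb8, which had 232, 213 and 228 reads in all.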

Other observations

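Some inputs to HoxB transcription varied with the HoxB genes between libraries, and others did not. Of 17 inputs tested, 7 had a positive and 10 a negative r with the members' mean scaled level (-0.96 to 0.89, median -0.17), as a description over 11 libraries with no test. The genes named here were picked after their values were seen. Cdx1, a homeobox gene that acts upstream of Hox genes, had r 0.89 with the mean scaled level of the HoxB genes and ran from 0.463 to 11.9 CPM. Aldh1a2, which makes retinoic acid, had r 0.85 and ran from 2.73 to 33.5 CPM. Cyp26b1, which breaks it down, had r -0.91 and ran from 13.3 to 70.8 CPM. Ezh2, the catalytic subunit of Polycomb repressive complex 2, had r -0.96 over the narrow range of 135 to 163 CPM. In the same list the retinoic acid receptor Rara had r -0.05 and Crabp2 0.15, and the Polycomb subunits Eed and Suz12 had 0.30 and -0.55. The other receptors on the list went both ways. Rarb had 0.76 and Rxrb 0.74, while Rxra had -0.89, Rarg -0.83 and Rxrg -0.80. Crabp1 had 0.82 and Cyp26a1 -0.70. None of Cdx1, Aldh1a2, Cyp26b1 and Ezh2 passed the edgeR test between genotypes (adjusted p 0.582, 0.955, 0.627 and 0.773 in the order named) or between litters (adjusted p 0.0995, 0.130, 0.0869 and 0.50).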
